A study of Zea mays with 6 samples.

Results

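The transcripts of 10 genes of C4 carbon fixation and Rubisco were followed in leaf, stem and root of maize under control and drought conditions. They were chosen as the enzymes and subunits of this pathway and taken by identifier from the 109715 gene identifiers of each tissue's table, and all 10 were found in all 3 tables. The genes encode carbonic anhydrase (GRMZM2G121878), PEP carboxylase (GRMZM2G083841, reference symbol pep1), NADP malate dehydrogenase (GRMZM2G129513, mdh6), pyruvate phosphate dikinase or PPDK (GRMZM2G306345, pdk1), NADP malic enzyme (GRMZM2G085019, me3), PEP carboxykinase (GRMZM2G001696), 2 Rubisco small subunits (GRMZM2G098520, ssu1, and GRMZM2G113033, rbcS) and 2 Rubisco activases (GRMZM2G162200, rca1, and GRMZM2G162282, rca3). The plants were the hybrid ZD619, labelled wild type, and the labels give a stage of 2 to 3 leaves. The methods name that stage for the choice of the plants that were kept, and place the withholding of water from seedlings 3 weeks old. The authors picture ZD619 in both conditions at a later leaf stage. Control plants were held at 80% of relative soil water content and drought plants were sampled at 35%. The leaf sample was the top 3 leaves, and each RNA sample came from 4 plants. Each tissue and treatment had 1 library, 6 in all, so no difference here has a replicate check and no test was made. The methods speak of replications of each treatment, and whether a library is one of these or a pool is not stated. A gene was counted as past 2-fold when its drought and control values differed by more than that factor, and each such count is set beside the share of all genes that passed it. Values are FPKM, fragment numbers scaled by transcript length and by the mapped fragments of the library, so levels of different genes are compared per length.

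In a C4 leaf, carbon is fixed in the mesophyll and released again around Rubisco in the bundle sheath. Carbonic anhydrase turns CO2 into bicarbonate, PEP carboxylase adds it to phosphoenolpyruvate, and NADP malate dehydrogenase reduces the product to malate. The malate moves to the bundle sheath, where NADP malic enzyme releases CO2 and PEP carboxykinase provides another route of release. Rubisco then refixes the CO2, with small subunits encoded in the nucleus and activases that keep its active sites open, while PPDK regenerates phosphoenolpyruvate in the mesophyll.

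The deposited tables hold no read counts per gene. Library totals stated outside the tables were not used here, so the counting error of each value was not computed. FPKM summed to between 544251 and 908668 per library, and between 37881 and 40428 genes were above 0. In the drought root library 1 gene took 9.55% of the sum. The 16 photosystem and antenna genes used to check the tissues had a median of 557 FPKM in control leaf and 1679 FPKM in control stem. In control root it was 1.34 FPKM. By this median the control library labelled stem held more light-harvesting transcript than that labelled leaf. Of the list, lhcb4, psad1, PSA2 and PSA3 went the other way, with lhcb4 at 373 FPKM in control leaf and 150 FPKM in control stem. Of the 10 genes of the KNOX family, which includes meristem regulators, kn1 was listed at 0 in all 6 libraries, and lg3 and lg4b were listed at 0 in leaf and stem but reached 19.4 and 8.97 FPKM in control root. Others were present in stem, with knox6 at 23.9 and 24.1 FPKM, knox7 at 11.4 and 15.3 FPKM and knox8 at 0.388 and 0.660 FPKM, control first, and knox6 and knox7 were also present in leaf and root. Of the 15 root genes, 10 were listed at 0 in control leaf, 9 in control stem and 2 in control root, and their sum was 45.0, 115 and 194 FPKM in these libraries. Among them rtcs1 was at 2.00 FPKM in control root and listed at 0 in leaf and stem, whereas the phosphate transporter pht1 was at 105 FPKM in control stem, 85.8 FPKM in control root and 35.1 FPKM in control leaf. Thus the stem libraries carried green tissue transcripts at high levels and some of the KNOX genes, but not kn1, lg3 or lg4b.

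The C4 and Rubisco genes were among the most abundant transcripts of both green tissues. Together they made up 2.82% of all FPKM in control leaf and 1.30% in drought leaf. In stem the share was 1.42% in control and 1.22% in drought, and in root it was 0.00601% and 0.00191%. Of the 100 genes with the highest FPKM, 7 in each leaf library and 5 in each stem library were among the 10, against 0 in root.

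**Figure D1:**
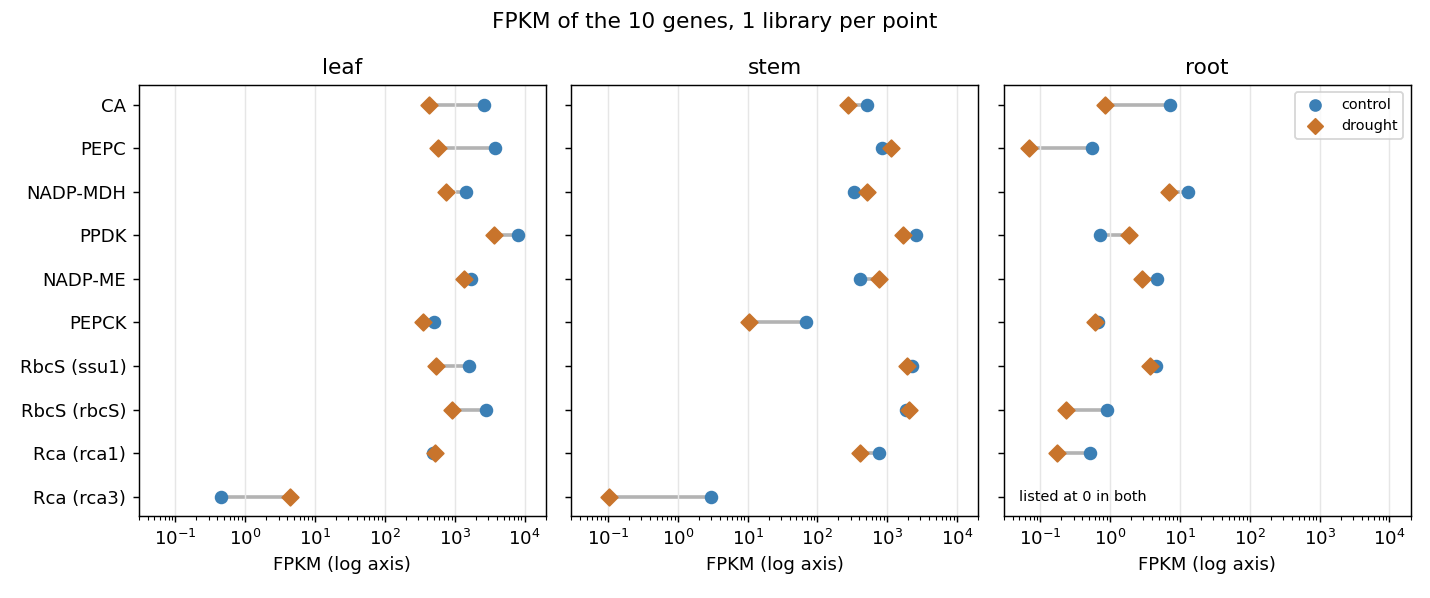
FPKM of the 10 genes on a log axis in leaf, stem and root, with a circle for the control library and a diamond for the drought library, 1 library per point. In leaf, PEP carboxylase moved from 3735 to 583 FPKM, in stem PEP carboxykinase from 69.9 to 10.4, and rca3 was listed at 0 in both root libraries.

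In leaf, the transcripts of carbonic anhydrase, PEP carboxylase, PPDK and the Rubisco small subunits were more than 2-fold lower under drought. Those of the decarboxylating enzymes and of the main activase stayed closer to control. Of the 10 genes, 5 were more than 2-fold lower in drought leaf (carbonic anhydrase, PEP carboxylase, PPDK and both small subunits), where 15.9% were among the 37063 genes tested, those averaging 0.1 FPKM or more over the pair of libraries. One activase, rca3, was more than 2-fold higher, as were 16.9% of all genes. Their median log2 fold change was -1.03, beside -0.02 over all genes tested. Abundant leaf genes in general were more often lower, since 40% of the 140 genes averaging 500 FPKM or more were more than 2-fold lower, against 5 of the 8 C4 and Rubisco genes at that level. From 100 FPKM the share was 21.5%, against 5 of 9, and from 1 FPKM it was 10.6%, against 5 of 10.

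Carbonic anhydrase, which supplies the bicarbonate, was at 2667 FPKM in control leaf and 435 FPKM in drought leaf, 6.14-fold lower. PEP carboxylase, the enzyme of the primary fixation, was at 3735 FPKM in control leaf and 583 FPKM in drought leaf, 6.40-fold lower. Among all genes it ranked 8 by FPKM in control leaf and 84 in drought leaf. These enzymes act in succession, and they had the largest fold decreases of the 10 genes in leaf, the only ones more than 4-fold lower (8.22% of all genes were more than 4-fold lower).

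PPDK, which regenerates the acceptor of CO2, ranked 2 in control leaf at 8124 FPKM and 8 in drought leaf at 3669 FPKM. It was 2.21-fold lower, and rescaling both libraries to the same FPKM sum brought the log2 fold change from -1.15 to -0.93, under 2-fold. NADP malate dehydrogenase, which makes malate in the mesophyll, was at 1439 and 762 FPKM, 1.89-fold lower. Hence all 4 mesophyll enzymes were lower in drought leaf, to very different degrees.

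The decarboxylating enzymes of the bundle sheath differed little between the leaf libraries. NADP malic enzyme was at 1699 FPKM in control leaf and 1356 FPKM in drought leaf, 1.25-fold lower. PEP carboxykinase was at 501 and 355 FPKM, 1.41-fold lower. Their summed FPKM was 1.29-fold lower in drought, whereas the sum of carbonic anhydrase and PEP carboxylase was 6.29-fold lower.

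The small subunits of Rubisco shifted side by side in leaf. The gene ssu1 was at 1608 FPKM in control and 538 FPKM in drought, 2.99-fold lower. The gene rbcS was at 2797 and 909.9 FPKM, 3.07-fold lower. These genes are close paralogs, and how reads shared by them were divided is not given in the sources used here, so the 2 values may not be independent. The main activase, rca1, was nearly level, at 488 FPKM in control leaf and 530.5 FPKM in drought leaf. The other activase, rca3, was at 0.447 and 4.34 FPKM, 9.71-fold higher under drought and still 122-fold below rca1 in the same library. The activases are paralogs and neighbours on chromosome 4 of the RefSeq annotation, with 0 genes starting between them, so the low values of rca3 are uncertain, since the division of shared reads is not given here either.

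Summed by the cell type in which each enzyme works in maize, the 4 mesophyll genes were at 15965 FPKM in control leaf and 5450 FPKM in drought leaf, 2.93-fold lower, and the 6 bundle sheath genes were at 7094 and 3694 FPKM, 1.92-fold lower. Whole organs were sequenced, so fewer cells of a type and less RNA per cell cannot be told apart. The 16 photosystem and antenna genes were also below control in drought leaf, 16 of 16, with a median log2 fold change of -2.26. Of the 16, 10 were more than 2-fold lower, beside 15.9% of all genes and 40% of those averaging 500 FPKM or more. Summed, the 16 were at 13372 FPKM in control and 4158 FPKM in drought. What part this lower level of green tissue transcripts has in the values of the 10 genes was not tested.

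**Figure D2:**
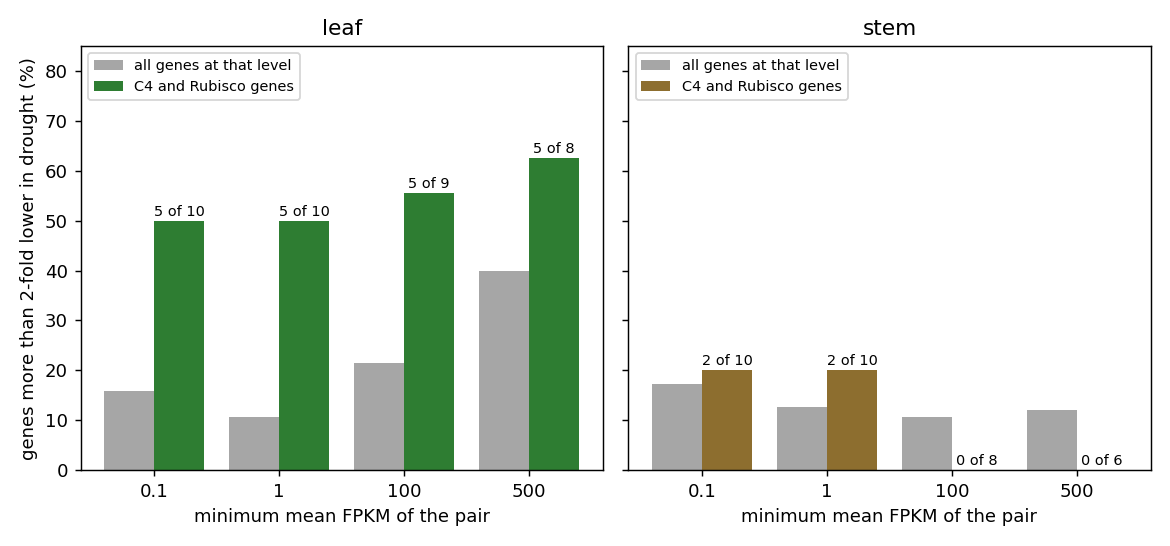
Share of genes more than 2-fold lower in drought (percent, axis from 0) in leaf and stem, for all genes (grey) and for the C4 and Rubisco genes (coloured), by the minimum mean FPKM of the pair of libraries. In leaf the share of all genes reached 40% at 500 FPKM against 5 of 8, and in stem 0 of 6 of the C4 and Rubisco genes were lower at that level.

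In stem, the 8 abundant genes stayed within 2-fold of their control level, 4 above it and 4 below, and the genes with larger differences were PEP carboxykinase and rca3. Both of these were more than 2-fold lower, 2 of 10, beside 17.2% of the 36265 genes tested, and 0 of 10 were more than 2-fold higher, beside 17.8%. The median log2 fold change was -0.43, beside 0.06 over all genes. Among the genes averaging 100 FPKM or more, 0 of 8 were more than 2-fold lower, where 10.6% of all genes were, and from 500 FPKM 0 of 6 were, beside 12.1%. From 1 FPKM it was 2 of 10, beside 12.7%. The photosystem and antenna genes summed to 27193 FPKM in control stem and 24762 FPKM in drought stem, and 0 of 16 were more than 2-fold lower and 1 higher.

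Among the mesophyll enzymes of stem, PEP carboxylase was at 851 FPKM in control and 1151 FPKM in drought, 1.35-fold higher. NADP malate dehydrogenase was at 330.3 and 508 FPKM, 1.54-fold higher. Both lay below control in leaf. Carbonic anhydrase was at 513 and 276 FPKM in stem, 1.86-fold lower, and PPDK was at 2604 and 1709 FPKM, 1.52-fold lower. Hence carbonic anhydrase and PEP carboxylase, close to each other in leaf, parted in stem.

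The decarboxylating enzymes of stem parted as well. NADP malic enzyme was at 403 FPKM in control stem and 766 FPKM in drought stem, 1.90-fold higher. PEP carboxykinase was at 69.9 FPKM in control stem, where it ranked 1513, and at 10.4 FPKM in drought stem, where it ranked 10814. It was 6.73-fold lower, beside 8.12% of all genes that were more than 4-fold lower.

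The Rubisco small subunits were the steadiest genes of stem. The gene ssu1 was at 2301 FPKM in control and 1930.0 FPKM in drought, and rbcS was at 1885 and 2066 FPKM. Their sum was 4186 FPKM in control and 3996 FPKM in drought, against 4405 and 1448 FPKM in leaf. The activase rca1 was at 769.6 and 406 FPKM, 1.90-fold lower, and just passed 2-fold when both libraries were rescaled to the same sum. The activase rca3 was at 3.03 FPKM in control stem and 0.103 FPKM in drought stem, 29.4-fold lower, with the drought value at the level of the filter. Both activases were therefore lower in drought stem and above control in drought leaf.

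**Figure D3:**
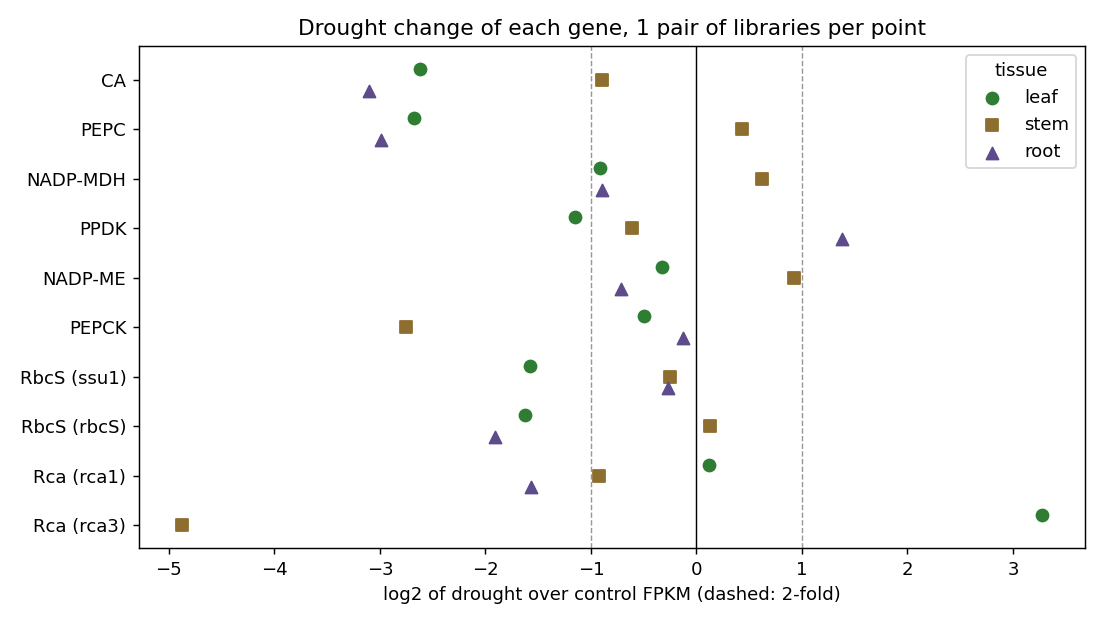
Log2 of drought over control FPKM of each gene in leaf (circles), stem (squares) and root (triangles), 1 pair of libraries per point, with dashed lines at 2-fold. PEP carboxylase stands at -2.68 in leaf and 0.44 in stem, and rca3 at 3.28 in leaf and -4.88 in stem.

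In root, the 10 genes were at trace levels beside the green tissues, and most were lower still under drought. The highest was NADP malate dehydrogenase, at 13.0 FPKM in control root and 6.97 FPKM in drought root. In the rescaled values, control leaf exceeded control root between 74.0-fold for this gene and 7513-fold for PPDK, leaving out rca3, which was listed at 0 in both root libraries. Of the 9 genes above 0, 4 were more than 2-fold lower in drought, beside 17.8% of the 37859 genes tested, and 1 was more than 2-fold higher, beside 28.1%. The median log2 fold change was -0.89. All genes of root had a median log2 fold change of 0.30, and relative to that median 6 of the 9 were more than 2-fold lower and 1 was higher. Of all genes, 22.4% were lower and 21.6% higher on that scale. With both root libraries rescaled to the same sum, 7 were lower and 0 higher, beside 32.6% and 14.9% of all genes.

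Carbonic anhydrase was at 7.27 FPKM in control root and 0.846 FPKM in drought root, a log2 fold change of -3.10, or -3.40 relative to the median of all genes. PEP carboxylase was at 0.541 and 0.0680 FPKM, -2.99 and -3.29. The 2 genes with the largest fold decreases in leaf thus also had the largest in root, PEP carboxylase from a level under 1 FPKM. PPDK went the other way, at 0.721 FPKM in control and 1.88 FPKM in drought, with a log2 fold change of 1.38, or 1.08 relative to the median. The reference gives this gene the symbols C4ppdkZm1 and cyppdkZm1, and values per gene do not separate its transcripts. NADP malic enzyme, at 4.69 and 2.87 FPKM, and NADP malate dehydrogenase had log2 fold changes of -0.71 and -0.89, which passed 2-fold only after a rescaling, at -1.01 and -1.19 relative to the median. PEP carboxykinase was at 0.661 and 0.605 FPKM. Of the Rubisco genes, ssu1 was at 4.48 and 3.72 FPKM, rbcS at 0.886 and 0.236 FPKM and rca1 at 0.508 and 0.171 FPKM. With a pseudocount of 1 FPKM only carbonic anhydrase remained past 2-fold in root.

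Ratios between genes of the same library do not depend on how libraries were scaled. PEP carboxylase over carbonic anhydrase was 1.40 in control leaf, 1.34 in drought leaf, 1.66 in control stem and 4.17 in drought stem. The ratio was therefore almost the same in both leaf libraries and in control stem, and drought stem stood apart. NADP malic enzyme over PEP carboxylase was 0.455 in control leaf, 2.32 in drought leaf, 0.474 in control stem and 0.666 in drought stem, so the decarboxylase transcript exceeded that of the carboxylase in drought leaf alone among these 4 libraries. PPDK over PEP carboxylase was 2.18 and 6.29 in leaf, control first, and 3.06 and 1.48 in stem, opposite orders in the tissues.

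NADP malic enzyme over PEP carboxykinase was 3.39 in control leaf, 3.82 in drought leaf, 5.77 in control stem and 73.8 in drought stem. The malic enzyme thus led the carboxykinase in all 4 green libraries, by far the most in drought stem. The small subunit ssu1 over rbcS was 0.575 and 0.591 in leaf, and 1.22 and 0.934 in stem, so rbcS led in both leaf libraries and the 2 were nearly level in stem. The summed activases over the summed small subunits were 0.111 in control leaf, 0.369 in drought leaf, 0.185 in control stem and 0.102 in drought stem. Activase transcript per small subunit transcript was therefore higher in drought than in control in leaf and lower in stem.

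**Figure D4:**
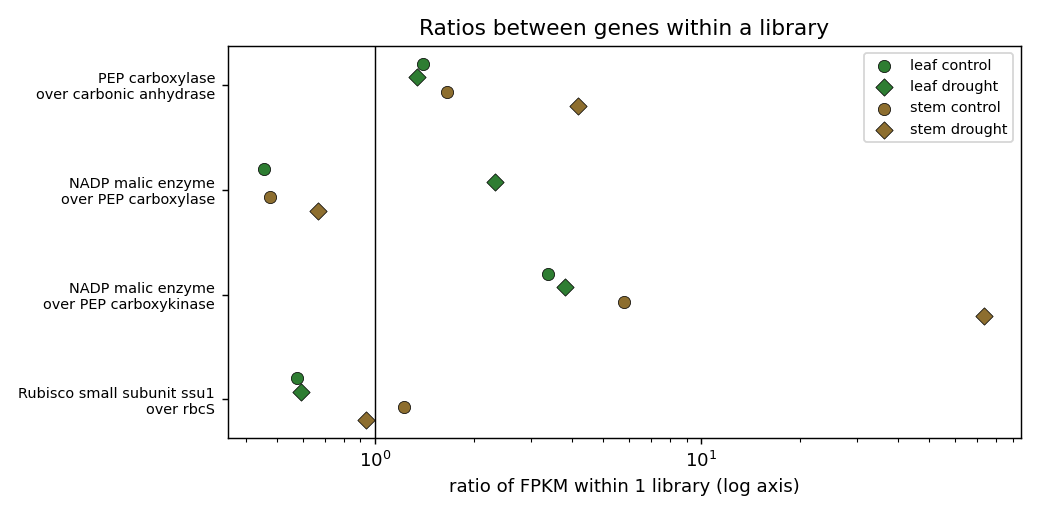
Ratios of FPKM between pairs of genes within each green library, on a log axis with a line at 1, with circles for control and diamonds for drought in leaf (green) and stem (brown). NADP malic enzyme over PEP carboxykinase reached 73.8 in drought stem against 3.39 to 5.77 in the other 3 libraries.

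To compare tissues, each library was rescaled to the same FPKM sum, because the tables may have been normalized separately. In control plants, 6 of the 10 genes were more than 2-fold higher in leaf than in stem, beside 24.6% of all genes, and 1, rca3, was more than 2-fold higher in stem, beside 22.7%. The 6 were the C4 cycle enzymes. PEP carboxykinase was 6.01-fold higher in leaf, carbonic anhydrase 4.36-fold, PEP carboxylase 3.68-fold, NADP malate dehydrogenase 3.65-fold, NADP malic enzyme 3.53-fold and PPDK 2.62-fold. The Rubisco genes differed less or were higher in stem. The small subunit rbcS was 1.24-fold higher in leaf, ssu1 was 1.71-fold higher in stem, and rca1 was 1.88-fold higher in stem. The photosystem and antenna genes summed to 16373 in control leaf and 39700 in control stem on this scale, so the C4 cycle enzymes were lower in the tissue with more light-harvesting transcript.

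In drought plants the distance between leaf and stem was smaller for most C4 cycle genes. PPDK, PEP carboxykinase and rca3 were more than 2-fold higher in leaf, 3 of 10, beside 32.5% of all genes, and 2 were more than 2-fold higher in stem, beside 19.9%, both small subunits. PEP carboxylase was 1.92-fold higher in drought stem than in drought leaf, the reverse of its order in control plants. Carbonic anhydrase kept its order, 1.62-fold higher in leaf. The small subunits ssu1 and rbcS were 3.49-fold and 2.21-fold higher in stem. PEP carboxykinase was 35.1-fold higher in leaf, against 6.01-fold in control plants. The activases, higher in stem in control plants, were on the other side, with rca1 1.34-fold and rca3 43.3-fold higher in drought leaf. These comparisons use the same 4 libraries as the drought comparisons within leaf and stem, and with 1 library each the order of neighbouring levels could not be tested.

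**Figure D5:**
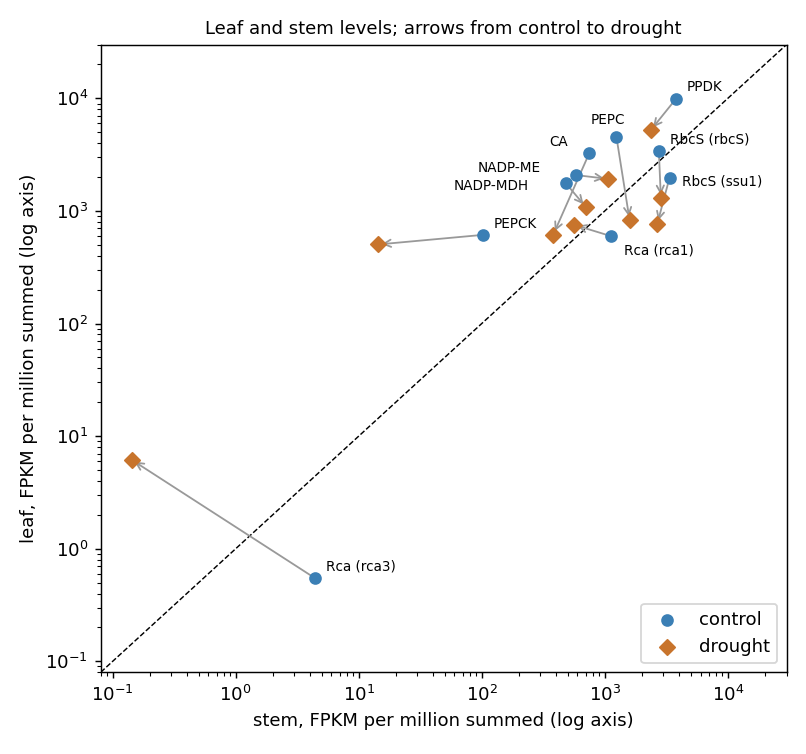
FPKM rescaled to the same library sum (log axes) of the 10 genes in stem and in leaf, with an arrow from control (circle) to drought (diamond) and a dashed line where both tissues are equal. PEP carboxylase and rbcS cross the line towards stem, and rca1 and rca3 cross it towards leaf.

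Other genes were taken by symbol, 28 identifiers. They belong to gene families of C4 enzymes and their regulators, phosphoenolpyruvate transport, the Calvin cycle, Rubisco assembly and photorespiration. A symbol names a family, so isoforms with other functions were not separated from those of the pathway. In leaf 7 of 28 were more than 2-fold lower in drought and 3 higher, beside 15.9% and 16.9% of all genes, and 4 were lower and 5 higher at the same library sum, beside 13.3% and 20.03%. In stem 10 of the 27 that passed the filter were lower and 2 higher, beside 17.2% and 17.8%. In root 5 of 27 were lower and 11 higher, beside 17.8% and 28.1%, and 10 were lower and 6 higher at the same sum, beside 32.6% and 14.9%. The median of their log2 fold changes was -0.33 in leaf and -0.34 in stem. For root the median was 0.75, and 0.01 with the libraries rescaled to the same sum. Of the list for the Calvin cycle, 3 of 6 were more than 2-fold lower in leaf, as were the small subunits. So were 15.9% of all genes, 21.5% of those averaging 100 FPKM or more and 40% of those averaging 500 FPKM or more. The plastid glyceraldehyde phosphate dehydrogenase subunit gpa1 was at 2205 and 753 FPKM in leaf and at 2053 and 1766 FPKM in stem. Its partner subunit gpb1 was at 724 and 282 FPKM in leaf and at 1061 and 652 FPKM in stem. Phosphoglycerate kinase Pgk-2 was at 388 and 169.5 FPKM in leaf and at 278 and 320.2 FPKM in stem. Aldolase ald1 was at 111 and 94.7 FPKM in leaf, and at 189 and 934 FPKM in root. Pgk-2 was also high in root, at 262 and 580 FPKM, whereas gpa1 and gpb1 were under 1 FPKM there. Whether ald1 and Pgk-2 serve the Calvin cycle was not tested.

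Of the 16 identifiers of C4 enzyme families, 4 were more than 2-fold lower and 3 higher in leaf, beside 15.9% and 16.9% of all genes. In stem 9 of 15 were lower and 1 higher, beside 17.2% and 17.8%. The regulatory protein of PPDK, pdrp1, which switches the enzyme on and off with light, was at 585 and 515 FPKM in leaf and at 239 and 279 FPKM in stem. The cytosolic malate dehydrogenase mdh4 was at 268 and 151 FPKM in leaf, at 392 and 329 FPKM in stem and at 180.4 and 498 FPKM in root. A further malate dehydrogenase, mdh2, was at 160.4 and 76.9 FPKM in leaf and at 118 and 210.0 FPKM in stem. The malic enzyme gene me2 was at 64.4 and 128 FPKM in leaf, at 52.1 and 109 FPKM in stem and at 265 and 207 FPKM in root. These family members, some with high values in root, did not share 1 direction across tissues.

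The 9 lower identifiers of stem were the 4 PEP carboxylase kinases, the second PEP carboxykinase pck2, the PPDK gene PPDK2 and 3 identifiers of the reference gene alt, and they are named here after their values were seen. The kinases phosphorylate PEP carboxylase and make it less sensitive to malate. PPCK1 was at 13.1 FPKM in control stem and 0.544 FPKM in drought stem, and PPCK2 at 151 and 25.6 FPKM. PPCK3 was at 3.34 and 0.0974 FPKM and PPCK4 at 19.1 and 9.24 FPKM. All 4 kinase genes were thus lower in drought stem, where PEP carboxylase itself was 1.35-fold higher. In leaf PPCK1 was at 8.21 and 18.4 FPKM, PPCK2 at 14.9 and 28.8 FPKM and PPCK4 at 20.8 and 34.7 FPKM, higher in drought, whereas PPCK3 was at 1.08 and 0.740 FPKM. The carboxykinase pck2 was at 50.4 and 10.4 FPKM in stem and at 22.5 and 21.0 FPKM in leaf, a difference between tissues of the same kind as in GRMZM2G001696.

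Of the assembly factors of Rubisco, bsd2 and RLSB were higher in drought stem and drought root and lower in drought leaf. The gene bsd2 was more than 2-fold higher in stem, as were 17.8% of all genes, and in root, as were 28.1%. The chaperone bsd2 was at 339 and 235 FPKM in leaf, at 185 and 396 FPKM in stem and at 1.38 and 9.84 FPKM in root. RLSB, which binds the transcript of the large subunit, was at 32.9 and 26.9 FPKM in leaf and at 12.4 and 20.7 FPKM in stem. In root RLSB was at 3.36 and 5.95 FPKM. The transporters of phosphoenolpyruvate, ppt2 and ppt1, were at 32.5 and 27.4 FPKM and at 8.19 and 6.37 FPKM in leaf. Glycolate oxidase of photorespiration was at 472 and 405 FPKM in leaf and at 172 and 122 FPKM in stem.

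Likeness of pattern was described by Pearson's r over the 6 libraries on log2 of rescaled FPKM + 0.1. It rests mostly on the gap between root and the green tissues, which all 6 points share. PEP carboxylase was most like the small subunit rbcS (r = 0.996), NADP malate dehydrogenase and NADP malic enzyme were most like each other (0.996), and PPDK was most like NADP malic enzyme (0.983). The activase rca3 was least like the rest, with a highest r of 0.830 to PEP carboxykinase. Among other genes with a symbol and at least 10 FPKM on average, the 5 most like the mean of the 10 were NFU3 (0.999), of the family of iron-sulfur cluster scaffolds, the leaf ferredoxin-NADP reductases L-FNRI (0.998) and L-FNRII (0.998), fdh1 (0.998) and TAB2 (0.997). Of all 13442 genes at that level, 1.23% had r above 0.99. L-FNRI was at 350 and 191 FPKM in leaf and at 132 and 112 FPKM in stem, control first.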

How the data were processed

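RNA of leaf, stem and root was extracted from 4 plants per sample, enriched for poly(A) and sequenced on an Illumina instrument. The authors mapped reads to the B73 maize genome with TopHat and processed them with Cufflinks and Cuffdiff, and versions and genome release are not given in the sources used here. The deposited tables hold FPKM per gene for 1 control and 1 drought library of each tissue, and 3 columns of the authors' log2 ratios, which were not used. Whether libraries were scaled to each other is not stated. The plastid-encoded large subunit of Rubisco is not analysed here.

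Fold changes were computed from FPKM with no pseudocount in Python 3.11.15 with numpy 2.4.6 and pandas 2.3.3, and figures were drawn with matplotlib 3.10.9. With 1 library per group no test was possible, so genes past 2-fold were counted among those averaging 0.1 FPKM or more over both libraries of a tissue. Among genes under 0.15 FPKM the most frequent log2 ratio of drought to control was 0.20 in leaf, -0.20 in stem and 0.30 in root, which bears only on the relative worth of 1 fragment. The scripts were tested on simulated data. The 10 genes, the other lists and the counting rules were chosen with earlier results of these data known, and 13 hits of the symbol lists were left out after values had been seen. Named genes are the 10, up to 4 of each pathway list by FPKM, and the 5 most alike, and 1 list gene is not reported here. Genes named beyond this rule, the C4 list genes lower in stem and the tissue markers, were chosen after their values were seen. Symbols and neighbours came from the RefSeq annotation of Zm-B73-REFERENCE-NAM-5.0, which matched 18778 of 109715 identifiers (17.1%). It is another assembly than the tables', so no coordinates are given. Alternatives were pseudocounts of 0.1 and 1 FPKM, other filters on low FPKM, rescalings of the libraries, a 4-fold threshold and, chosen after seeing the data, a minimum of 500 FPKM.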

Additional observations from a re-analysis of the deposited data

Results flagged for a closer look

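Several genes had fold changes in opposite directions in 2 tissues, and with 1 library per tissue and treatment none of these differences was tested. Differences are given as the log2 fold change in the first tissue less that in the second. PEP carboxylase (GRMZM2G083841) differed by -3.11 between leaf and stem and by 3.43 between stem and root. NADP malate dehydrogenase (GRMZM2G129513) differed by -1.54 between leaf and stem and by 1.51 between stem and root. NADP malic enzyme (GRMZM2G085019) differed by -1.25 between leaf and stem and by 1.64 between stem and root. For these 3 genes stem was above its control and leaf and root were below theirs. The small subunit rbcS (GRMZM2G113033) had the same pattern, at -1.75 between leaf and stem and 2.04 between stem and root, although its stem value was only 1.10-fold above control. PPDK (GRMZM2G306345) differed by -2.53 between leaf and root and by -1.99 between stem and root, being above its control in root, at 1.88 FPKM. The activase rca1 (GRMZM2G162200) differed by 1.04 between leaf and stem and by 1.69 between leaf and root. The activase rca3 (GRMZM2G162282) had the widest gap, 8.16 between leaf and stem, from values of at most 4.34 FPKM.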

How the results depend on the processing

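All 145 log2 fold changes of single genes of the 10 kept their sign under pseudocounts of 0.1 and 1 FPKM and the 3 rescalings. A pseudocount added to both values cannot change a sign, and a rescaling shifts all genes of a tissue alike. In leaf the shifts by the median and by the upper quartile were 0.016 and 0.002, the smallest log2 fold change being 0.12. The shift to the same sum there was upward by 0.21, and the smallest decrease was -0.33. In stem the smallest log2 fold change was 0.13, beyond every shift, the largest being -0.08. In root all shifts were downward, the largest -0.74, and PPDK, the only gene above control, stood at 1.38. No sign could therefore change, and the kept signs are no check of the results. Of the 145, 49 of 50 in leaf, 49 of 50 in stem and 33 of 45 in root also stayed on their side of 2-fold. At a threshold of 4-fold, 2 genes were lower and 1 higher in leaf, beside 8.22% and 8.91% of all genes tested. In stem 2 were lower and 0 higher at 4-fold, beside 8.12% and 7.1%, and in root 2 and 0, beside 9.8% and 12.1%. With a pseudocount of 1 FPKM, 1 was more than 2-fold lower in root and 0 higher, beside 6.97% and 16.8% of all genes. Rescaling to the same FPKM sum shifted all log2 fold changes by 0.21 in leaf, -0.08 in stem and -0.74 in root and brought the median of the 10 genes to -0.82 in leaf and -1.63 in root. In root the median was -1.19 relative to the median of all genes and -1.27 at the same upper quartile. The share of genes past 2-fold that were higher in root was 61.3% as deposited, 31.4% at the same sum, 49.1% relative to the median and 45.7% at the same upper quartile. The share of all genes past 2-fold was 32.8% in leaf, but 14.9% with no filter, 21.8% at a minimum of 1 FPKM, 12.9% with a pseudocount of 1 FPKM and 51.4% at a minimum of 500 FPKM. With no filter all 109715 identifiers are counted, also those at 0 in both libraries, which cannot be past 2-fold. The number past 2-fold in leaf was then larger, 16306 against 12171. In stem it was 35.1%, but 16.2% with no filter and 14.5% with a pseudocount of 1 FPKM. In root it was 45.9%, but 20.1% with no filter and 23.7% with a pseudocount of 1 FPKM. Of the 5 genes most like the 10, 3 were shared when FPKM were used as deposited. No paired analysis was possible because each group has 1 library, and for the same reason no library could be left out. Counting error was not computed, which bears most on values under 1 FPKM, most of those in root and all but 2 of rca3.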
